A study of Sus scrofa with 15 samples.

Results

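The 10 genes described here act in the beta-oxidation of fatty acids in mitochondria: CPT1A, CPT2, ACADVL, ACADL, ACADM, ACADS, HADHA, HADHB, ETFA and ETFDH. They were read from the expression table of pig embryos made by somatic cell nuclear transfer (SCNT) as the entries that carry these symbols, and all 10 were found among 43294 features, of which 28224 were genes of the annotation and 15070 were assembled transcripts with no gene name. The set was chosen by the level of ACADM, which was among the largest rises in SCNT4c-KG over SCNT4c in these same libraries. Its values in comparisons that use those libraries are therefore given as a description, with no test, and the question asked of the other 9 genes was whether they moved with it.

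In beta-oxidation a fatty acid is joined to coenzyme A, carried across the inner mitochondrial membrane as a carnitine ester, and shortened step by step to acetyl-CoA. CPT1A and CPT2 attach and remove the carnitine, acyl-CoA dehydrogenases for very long, long, medium and short chains (ACADVL, ACADL, ACADM, ACADS) take the first step, and HADHA and HADHB are the subunits of the trifunctional protein, which carries out the later steps on long chains. ETFA, a subunit of the electron transfer flavoprotein, and ETFDH pass the electrons of the dehydrogenases on to the respiratory chain. Pig oocytes and early embryos are rich in lipid droplets, and fatty acids are a known source of energy for them.

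The 5 groups had 3 libraries each. PFF were primary fetal fibroblasts at passages 2 to 5, the cells that gave the donor nuclei. SCNT4c and SCNT8c were untreated SCNT embryos at the 4-cell and the 8-cell stage. SCNT4c-KG were 4-cell embryos injected with KDM4A mRNA (1000 ng/ul) 5 h after activation and cultured with GSK126 (0.1 uM) from 0 to 48 h. KDM4A removes methyl groups from lysine 9 of histone H3, and GSK126 inhibits EZH2, the enzyme that methylates lysine 27. SCNT4c-TDG were 4-cell embryos whose donor cells carried a doxycycline-inducible vector for TDG, a DNA glycosylase of active DNA demethylation, and which received doxycycline (500 ng/ml) from 40 to 72 h. These donor cells had also been transfected and selected with puromycin, and no library of such embryos without doxycycline was analysed here, so the vector, its selection and the drug cannot be told apart from TDG. Each embryo library came from a pool of 30 embryos, and its cDNA was amplified before sequencing. The labels do not say whether the libraries of a group came from separate rounds of nuclear transfer, and the p-values measure the spread between these libraries only. Titles and descriptions of the samples disagree. The descriptions of the SCNT4c-KG samples are the names that the table gives to its untreated 4-cell columns, while the table also has columns named for KG, and the descriptions number the SCNT4c samples in another order than the titles. Groups follow the titles and the column names that match them, so each comparison with SCNT4c or SCNT4c-KG rests on that choice, and the SCNT4c libraries are called a, b and c.

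Whole reads per library ranged from 12354649 to 15390472 in SCNT4c-KG, the shallowest group, and from 17757929 to 22868038 in the other groups. The genes of the treatments were highest among the embryo groups where the titles place them, though each was also above SCNT4c in the other treated group. KDM4A lay between 1429 and 1476 in SCNT4c-KG, 555 and 918 in SCNT4c-TDG and 134 and 313 in SCNT4c, and TDG between 49857 and 59944 in SCNT4c-TDG, 3886 and 4738 in SCNT4c-KG and 939 and 2541 in SCNT4c. The 8 fibroblast markers summed to at least 3363460 in each PFF library and to at most 4857 in any embryo library. The 8 markers of oocytes and early embryos summed to 68457 to 89723 in SCNT4c, 26021 to 50668 in SCNT4c-KG, 10627 to 16775 in SCNT4c-TDG and 37146 to 45983 in SCNT8c, with GDF9 and BMP15 at 0 in all 4. Among the embryo groups, ZAR1 was at 0 in SCNT4c-KG only. Of the 8 cumulus cell markers 6 were listed. They summed to 273 to 475 in SCNT4c-KG against 45.4 to 254 in SCNT4c, with PTX3 and AMH at 0 in both. FSHR was also at 0 in SCNT4c-KG, and 2 of the 6 averaged at least 10 there, against 3 in SCNT4c. Mitochondrial genes took 8.26% to 9.42% of the reads in SCNT4c-TDG, and 0.909% to 2.47% in the other embryo libraries. The part of these differences in the results below was not tested.

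Values are the deposited normalized signal, which is a read count divided by a factor for each library. A gene was called when the adjusted p of limma was under 0.05 and the fold change above 2, with log2(value + 1) as the scale of every log2 fold change.

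Sequences upstream of the genes were read from Sscrofa11.1, to show what stands before the starts of the members. ACADM lies on the minus strand of chromosome 6 (chr6:137541481-137575544), and the 250 bases before its annotated start are chr6:137575545-137575794. They are shown because ACADM was the gene by which the set was chosen. The capitals mark 3 GC boxes (GGGCGG on either strand).
ACADM upstream: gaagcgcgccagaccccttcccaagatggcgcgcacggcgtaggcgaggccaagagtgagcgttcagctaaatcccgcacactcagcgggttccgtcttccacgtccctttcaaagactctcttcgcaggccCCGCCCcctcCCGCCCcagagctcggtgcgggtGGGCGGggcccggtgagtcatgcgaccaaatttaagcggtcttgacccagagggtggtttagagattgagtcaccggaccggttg
HADHB (minus strand, chr3:112712894-112753121) and HADHA (plus strand, chr3:112753343-112797627) start back to back, with 221 bases between their annotated starts (chr3:112753122-112753342, GC content 62.9%). The stretch is shown because both genes share it and they did not move alike. It holds none of the 5 motifs searched, and it is printed on the plus strand, so HADHA is read to the right.
HADHB-HADHA intergenic: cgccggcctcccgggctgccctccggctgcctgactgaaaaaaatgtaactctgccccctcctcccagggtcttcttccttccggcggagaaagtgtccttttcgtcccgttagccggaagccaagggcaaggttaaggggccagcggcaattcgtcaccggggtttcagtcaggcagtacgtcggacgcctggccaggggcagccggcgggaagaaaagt
Of 19560 protein-coding genes, 790 neighbouring pairs start back to back within 1000 bases. In the 250 bases before the start, a GC box (GGGCGG) was found on either strand in 6 of the 10 genes and in 45.9% of 19556 promoters of this length. CCAAT was found in 3 of 10 and 31.9%, the nuclear receptor half-site AGGTCA in 1 of 10 (CPT2) and 12.2%, the E-box CACGTG in 0 of 10 and 6.39%, and TATAAA in 0 of 10 and 9.77%. These are matches of letters and not sites of binding. The remaining members lie apart from each other, CPT1A at chr2:4250642-4293914 (plus strand), CPT2 at chr6:159038129-159061327 (minus), ACADVL at chr12:52573521-52581755 (plus), ACADL at chr15:112935631-112969381 (minus), ACADS at chr14:40642810-40656922 (plus), ETFA at chr7:56450508-56540275 (minus) and ETFDH at chr8:47608499-47655889 (plus), all in the RefSeq annotation of Sscrofa11.1.

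ACADM, the medium-chain dehydrogenase, was near the limit of detection in SCNT4c and far higher in both treated groups. Its normalized signal was 1.58, 1.75 and 2.49 in SCNT4c libraries a, b and c, which rests on 7 reads in all. It was 843, 1280 and 1315 in SCNT4c-KG (2448 reads), 232, 175 and 332 in SCNT4c-TDG, 15.9, 11.6 and 9.51 in SCNT8c and 25.7, 21.7 and 22.6 in PFF. In the order SCNT4c-KG, SCNT4c-TDG, PFF, SCNT8c and SCNT4c, no group overlapped its neighbour. The log2 fold changes against SCNT4c were 8.59 in SCNT4c-KG, 6.36 in SCNT4c-TDG and 2.17 in SCNT8c, all given as a description. In pools of embryos, fewer cells that express a gene and less RNA per cell cannot be told apart.

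SCNT4c-TDG and SCNT8c were not the groups by which ACADM was chosen, but the joint fit of the 12 embryo libraries takes its spread from SCNT4c and SCNT4c-KG as well. ACADM averaged 246 ± 79.5 (SD, n = 3) for SCNT4c-TDG, beside 12.3 ± 3.24 (SD, n = 3) for SCNT8c, with a log2 fold change of 4.19 (SE 0.55, limma adjusted p = 6.5e-05). In a limma fit of these 2 groups alone the adjusted p was 0.0021. The stage and the donor cells differ between these groups as well as the treatment.

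**Figure D1:**
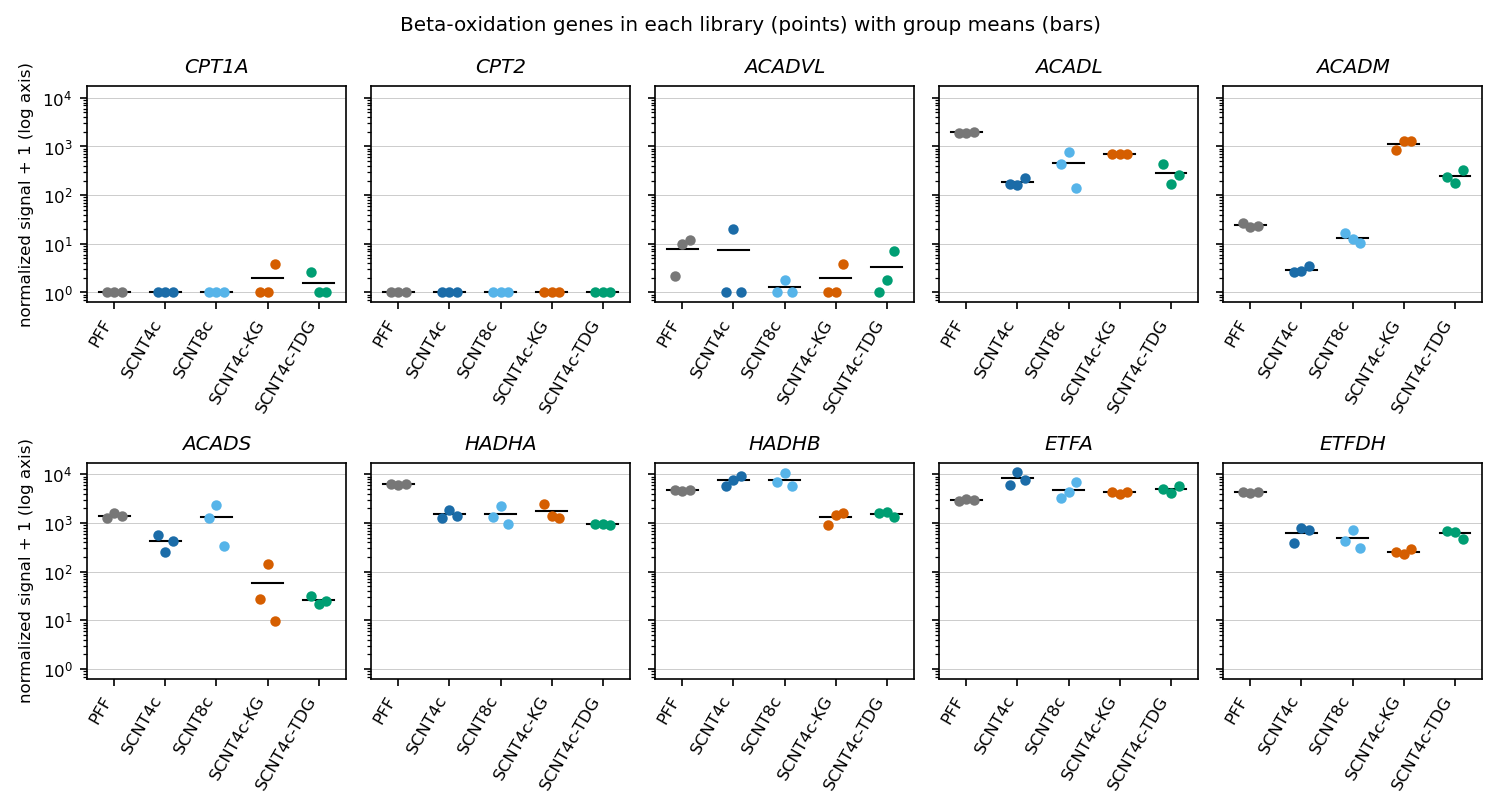
Normalized signal plus 1 on a log axis for each of the 10 genes, with 1 point for each library and a bar at the mean of each group. ACADM sits between 843 and 1315 in SCNT4c-KG and between 1.58 and 2.49 in SCNT4c, while HADHB and ACADS are lower in both treated groups than in SCNT4c.

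The other genes of the pathway did not follow ACADM as a group in SCNT4c-KG. Of the other 9 genes, 6 passed the filter on low values, and 4 of them were called: ACADL rose, and ACADS, HADHB and ETFDH fell. Over all 18942 features tested, 37.2% were called (17.6% higher and 19.6% lower). For 5 of the 6 genes no library of one group reached the range of the other, which was also so for 53.9% of all features. The median log2 fold change of the 6 genes was -1.07, beside -0.30 over all features. In SCNT4c-TDG, 2 of 6 were called, HADHB and ACADS, both lower, where 33.3% of all features were called (15.7% higher and 17.6% lower), and the medians were -0.69 and -0.26. Here 4 of the 6 had ranges apart, beside 58.4% of all features. All comparisons with SCNT4c share its 3 libraries.

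**Figure D2:**
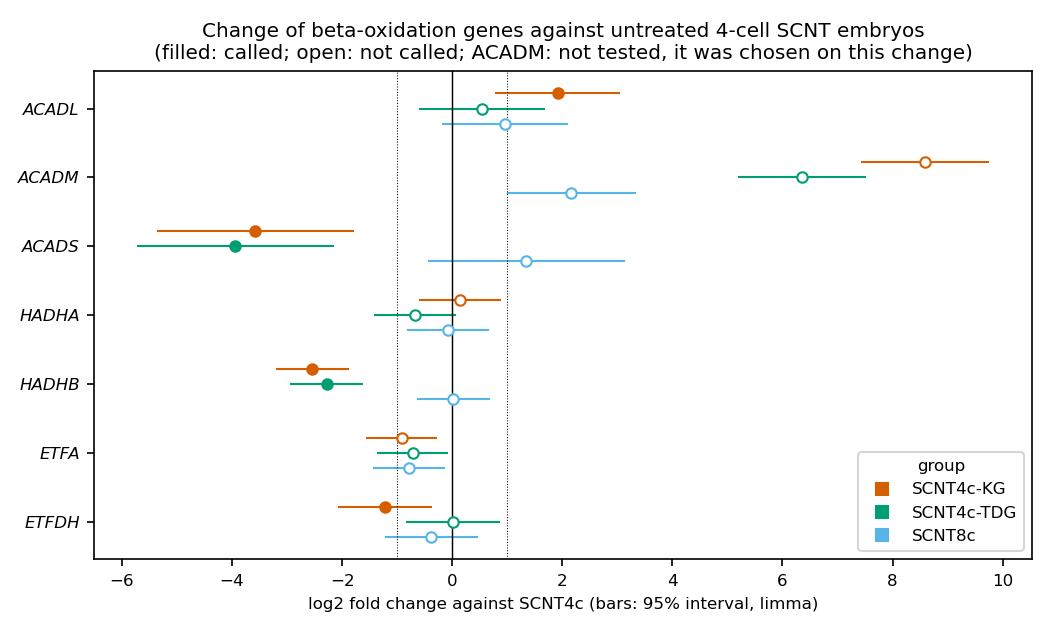
Log2 fold change against SCNT4c, with its 95% interval from limma, for the 7 genes that passed the filter, in SCNT4c-KG, SCNT4c-TDG and SCNT8c. Filled points were called, open points were not, and ACADM was not tested. Dotted lines mark a 2-fold change. HADHB and ACADS are filled and left of 0 in both treated groups, at -2.54 and -3.58 in SCNT4c-KG.

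ACADL, the long-chain dehydrogenase, rose in SCNT4c-KG, alone among the 6 gene entries tested there. It was 169, 163 and 225 in SCNT4c against 701, 690 and 691 in SCNT4c-KG, with no overlap (log2 fold change 1.91, SE 0.54, adjusted p = 0.0115). In SCNT4c-TDG it was 432, 172 and 256, which overlaps SCNT4c (0.54, adjusted p = 0.462). The 3 SCNT8c libraries spread from 136 to 784 and enclosed every embryo group in range. Against SCNT4c the log2 fold change in SCNT8c was 0.96 (adjusted p = 0.245), and it was 1.66 (adjusted p = 0.0052) without SCNT8c replicate 3. PFF had 1913, 1931 and 1986, above all embryo libraries.

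ACADS, the short-chain dehydrogenase, moved the opposite way. It was 569, 253 and 426 in SCNT4c, 26.1, 140 and 8.55 in SCNT4c-KG, and 30.1, 20.7 and 24.5 in SCNT4c-TDG. Both treated groups lay below every SCNT4c library, although SCNT4c-KG spread widely. The log2 fold change was -3.58 in SCNT4c-KG (SE 0.84, adjusted p = 0.0040) and -3.94 in SCNT4c-TDG (adjusted p = 0.0023). The value in SCNT4c-KG was -4.62 (adjusted p = 0.00063) without SCNT4c-KG replicate 2 and -2.68 (adjusted p = 0.0218) without SCNT4c-KG replicate 3. In SCNT8c it was 1240, 2376 and 342, which overlaps SCNT4c (1.34, adjusted p = 0.298). ACADVL, the dehydrogenase for very long chains, did not pass the filter and had at most 19.2 in any library.

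Of the trifunctional protein, HADHB fell in both treated groups and HADHA was called in neither. HADHB, the thiolase subunit, was 5798, 7589 and 9250 in SCNT4c, 902, 1430 and 1602 in SCNT4c-KG, and 1641, 1657 and 1303 in SCNT4c-TDG. No library of a treated group reached a library of SCNT4c. The log2 fold change was -2.54 (SE 0.31, adjusted p = 2.1e-05) in SCNT4c-KG and -2.28 (adjusted p = 6.2e-05) in SCNT4c-TDG. In SCNT8c HADHB was 6996, 10499 and 5811 (0.02, 95% interval -0.64 to 0.68, adjusted p = 0.972).

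HADHA, the subunit with the hydratase and dehydrogenase activities, was 1247, 1883 and 1417 in SCNT4c against 2489, 1414 and 1275 in SCNT4c-KG, and the groups overlapped (0.14, 95% interval -0.60 to 0.89, adjusted p = 0.770). In SCNT4c-TDG it was 947, 946 and 914, below every SCNT4c library, but was not called (-0.67, adjusted p = 0.149). In SCNT8c it was 1358, 2182 and 969, which overlaps SCNT4c.

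Signal per kb of annotated exon puts the subunits on a like scale. Differences between genes in coverage or isoforms were not corrected for, so a ratio is not a calibrated ratio of RNA molecules. The ratio of HADHB to HADHA per kb was 5.29, 4.58 and 7.42 in SCNT4c and 5.86, 5.47 and 6.82 in SCNT8c. It was 0.412, 1.15 and 1.43 in SCNT4c-KG, 1.97, 1.99 and 1.62 in SCNT4c-TDG and 0.872, 0.855 and 0.839 in PFF. The untreated embryos thus had several times more HADHB than HADHA signal per kb, and both treated groups lay closer to 1. The ratio within a library does not depend on its scaling factor. The mean log2 ratio differed from that of SCNT4c by -2.69 in SCNT4c-KG and -1.61 in SCNT4c-TDG (both p = 0.1 in a two-sided exact permutation test, the smallest p that 3 against 3 libraries allow) and by 0.09 in SCNT8c (exact permutation p = 0.7). This ratio was chosen after the levels had been seen.

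**Figure D3:**
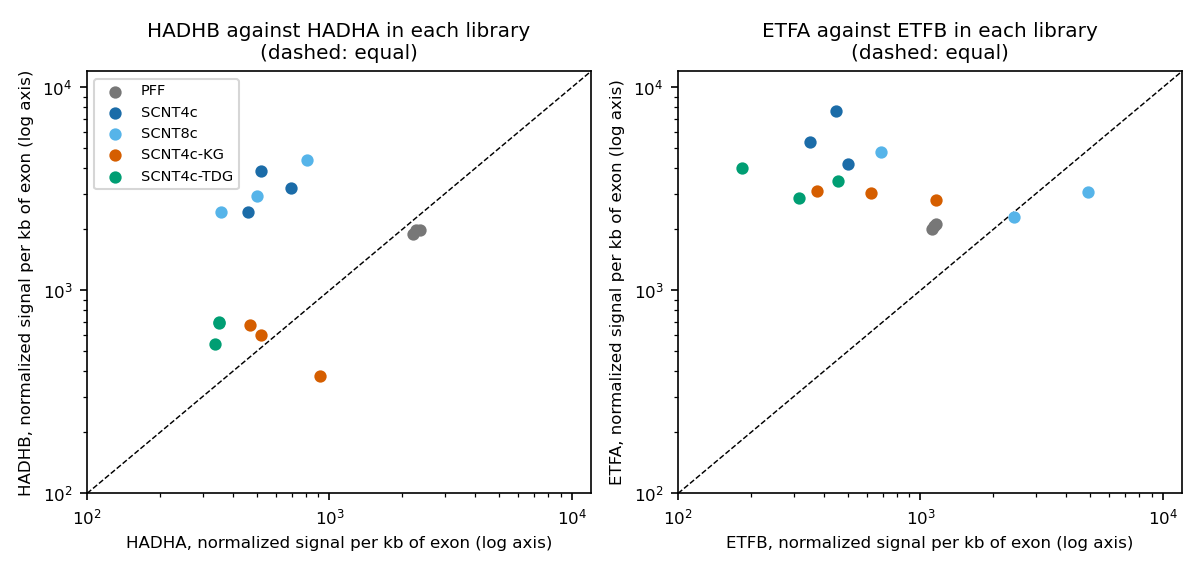
Normalized signal per kb of exon in each library, on log axes, for HADHB against HADHA (left) and ETFA against ETFB (right), with a dashed line where both are equal. SCNT4c and SCNT8c lie above the line in the left panel, with HADHB to HADHA ratios of 4.58 to 7.42 and 5.47 to 6.82, and PFF lie just below it at 0.839 to 0.872.

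Of the electron carriers, ETFDH was called in SCNT4c-KG and ETFA was not. ETFA was 6024, 10990 and 7694 in SCNT4c against 4321, 3989 and 4404 in SCNT4c-KG, with no overlap, but the difference stayed under the 2-fold limit (-0.92, adjusted p = 0.0273). It was 4941, 4082 and 5733 in SCNT4c-TDG (-0.71, adjusted p = 0.082) and 3301, 4379 and 6880 in SCNT8c (-0.79, adjusted p = 0.109). With quantile normalization or the same total in each library, the difference in SCNT4c-KG passed the limit at -1.08 and -1.01 (where 38.2% and 37.7% of all features were called), and without SCNT4c library a at -1.12. ETFB, the other subunit of the flavoprotein and no member, was 379 to 544 in SCNT4c and 743 to 5329 in SCNT8c (2.24, adjusted p = 0.043). This call held without SCNT8c replicate 3 (3.01) and was lost without any other library of the 2 groups, with 1.59 without SCNT8c replicate 2. The ratio of ETFA to ETFB per kb, also chosen after the levels had been seen, was 8.35 to 17.2 in SCNT4c, 2.41 to 8.21 in SCNT4c-KG, 7.51 to 21.7 in SCNT4c-TDG, 0.619 to 6.98 in SCNT8c and 1.81 to 1.84 in PFF. SCNT4c-KG and SCNT8c lay below every SCNT4c library (difference in mean log2 ratio -1.51 and -3.02, both p = 0.1 in the two-sided exact permutation test), and SCNT4c-TDG overlapped SCNT4c (exact permutation p = 0.9). The difference in SCNT8c was -4.09 without SCNT8c replicate 3 and -2.34 without SCNT8c replicate 2.

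ETFDH, which hands the electrons to ubiquinone, was 383, 782 and 706 in SCNT4c, 250, 232 and 286 in SCNT4c-KG and 696, 660 and 473 in SCNT4c-TDG. SCNT4c-KG lay below every library of the other groups, and its fall was called (-1.22, SE 0.40, adjusted p = 0.0254). The call was lost without SCNT4c library b (adjusted p = 0.105), SCNT4c library c (0.0843), SCNT4c-KG replicate 1 (0.0593) or SCNT4c-KG replicate 2 (0.0744). SCNT4c-TDG did not differ detectably from SCNT4c (0.01, 95% interval -0.83 to 0.86). ETFDH overlaps C8H4orf46 on the opposite strand, and the strand setting of the counting is not stated. C8H4orf46 had a mean of 241 (SD 73.3, 3 libraries) in SCNT4c, beside 25.8 (SD 5.08) in SCNT4c-KG.

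Both carnitine transferases had gene entries at or near 0. CPT2 was listed at 0 in all 15 libraries, and CPT1A in all but 1 library of SCNT4c-KG (2.85) and 1 of SCNT4c-TDG (1.67), so neither was tested. The table also lists assembled transcripts with no gene name at these loci, and those carried signal. The loci reach beyond the annotated genes, to chr2:4234635 at CPT1A (gene from chr2:4250642) and to chr6:159029476 at CPT2 (gene from chr6:159038129). Whether this signal belongs to the 2 genes was not tested. At the CPT1A locus the assembled transcript was 33.1, 10.5 and 14.9 in SCNT4c, 98.0, 253 and 78.4 in SCNT4c-KG, 102, 59.8 and 49.7 in SCNT4c-TDG, 5.60, 36.6 and 1.06 in SCNT8c and 18.3, 17.8 and 28.6 in PFF. Both treated groups lay above every untreated embryo library there. Summed with the gene entry, the CPT1A locus gave a log2 fold change of 2.79 in SCNT4c-KG (adjusted p = 0.0297) and 1.90 in SCNT4c-TDG (adjusted p = 0.131). SCNT4c-TDG against SCNT8c gave 3.10 (adjusted p = 0.0246). The call in SCNT4c-KG was lost without SCNT4c library b or c or SCNT4c-KG replicate 1 or 2 (adjusted p 0.0508 to 0.119). The call against SCNT8c held without SCNT8c replicate 2 (4.22) and was lost without any other library of the 2 groups, with 2.12 without SCNT8c replicate 3 (adjusted p = 0.0659).

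At the CPT2 locus the assembled transcript was 50.5, 55.1 and 44.8 in SCNT4c, 37.6, 26.6 and 5.70 in SCNT4c-KG and 10.9, 27.6 and 25.3 in SCNT4c-TDG. The treated libraries were all lower, but the sum was not called (-1.40, adjusted p = 0.208, and -1.30, adjusted p = 0.258). The ACADVL locus in the table also spans DLG4, DVL2 and MIR324, so its assembled transcript (458 ± 81.5 in SCNT4c, 287 ± 40.8 in SCNT4c-KG and 1062 ± 370 in SCNT8c, SD, n = 3) cannot be assigned to ACADVL. An assembled transcript at the ACADM locus was 0 in all 15 libraries, and of 11213 assembled transcripts at gene loci 15.2% were at 0 throughout. How reads were divided between the entries of a locus is not stated, and its part in the values of these 3 genes was not tested.

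**Figure D4:**
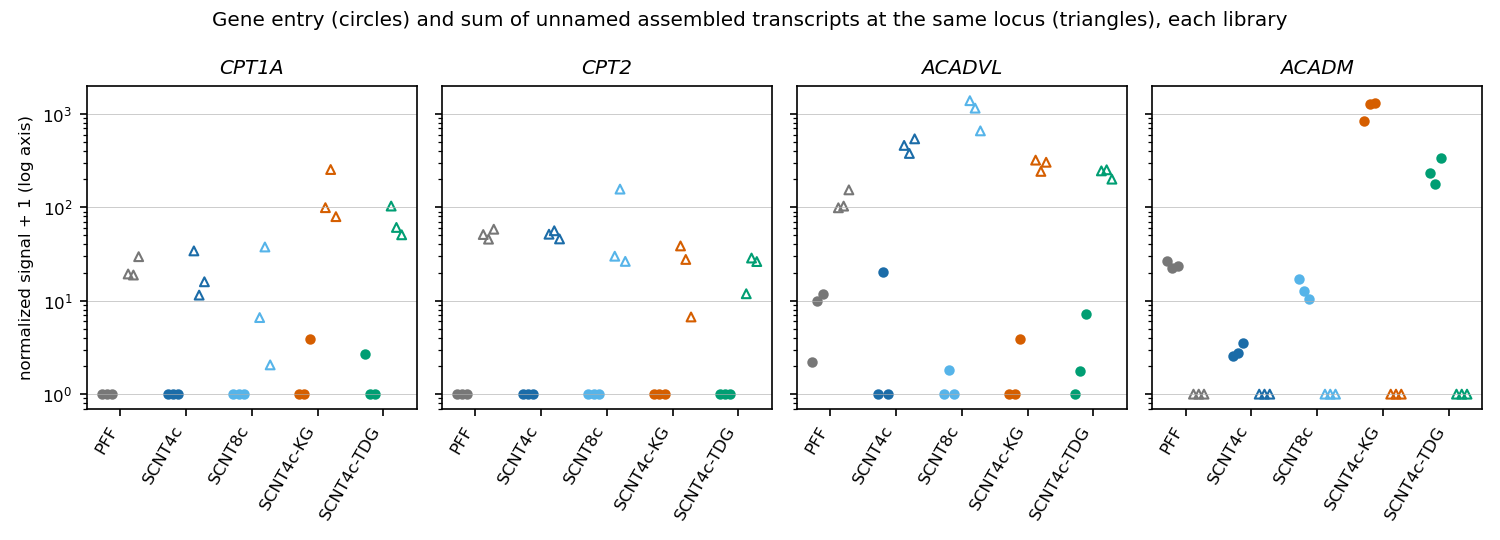
Normalized signal plus 1 on a log axis at 4 loci in each library, with circles for the gene entry and triangles for the sum of assembled transcripts without gene name. At CPT1A and CPT2 the circles lie at or near 0 and the triangles carry the signal, with 98.0, 253 and 78.4 at CPT1A in SCNT4c-KG, and at ACADM the reverse holds.

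From the 4-cell to the 8-cell stage of untreated embryos, 0 of 6 genes were called by limma. Of the 6, 1 gene, ETFA, had an unadjusted limma value under 0.05 (0.0205, before adjustment). edgeR called 0 and DESeq2 called 1, ACADL (1.58, adjusted p = 0.0354). Over all features 5.79% were called by limma (2.62% higher and 3.16% lower), 4.45% by edgeR and 14.4% by DESeq2. The share by limma was 32.3% without SCNT8c replicate 3, 0.929%, 0.164% and 1.23% without SCNT4c library a, b and c, and 0.216% and 0.269% without SCNT8c replicates 1 and 2. In a limma fit of these 2 groups alone 0 of 18184 features were called, with 3582 at an unadjusted p under 0.05, so the calls given for SCNT8c against SCNT4c, in the gene lists too, rest on the spread of all 12 embryo libraries. The groups overlapped for each of the 6 genes, while 23.5% of all features did not overlap. Of the calls, 45.3% were higher, against 57% with quantile normalization, 71.8% with DESeq2 and 79.5% with edgeR.

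Between the treated groups, ETFDH was the single gene called of 6, higher in SCNT4c-TDG than in SCNT4c-KG (1.23, adjusted p = 0.046). Over all features 16.2% were called (7.07% higher and 9.13% lower). The call was lost when any library of either group was left out, with adjusted p between 0.0707 and 0.155, and when all features above 0 were tested (0.0731). ACADL was lower in SCNT4c-TDG without overlap (-1.38, adjusted p = 0.0944), as 44.4% of all features were without overlap. It was called in a fit of these 2 groups alone (0.0079), also with the replicate number as a block (0.0052), where 27.5% and 26.5% of all features were called. With the same total in each library the median of all features moved from -0.02 to 0.33, and the share of calls that were higher from 43.6% to 64.2%.

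Against SCNT8c, SCNT4c-TDG had 3 of 7 genes called, where 24.7% of all features were (13.7% higher and 11% lower). ACADM was higher, as given above. ACADS (-5.28, adjusted p = 0.00033) and HADHB (-2.30, adjusted p = 8.4e-05) were lower. Of the 7 genes 4 had no overlap between the groups, these 2 included, beside 40.6% of all features. ACADS was -4.66 without SCNT8c replicate 2 and -6.06 without SCNT8c replicate 3. ACADL was -0.42 (adjusted p = 0.609), and without SCNT8c replicate 3 it was -1.12 (adjusted p = 0.0437).

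Of the 6 members tested in SCNT4c against PFF, 4 were lower in the 4-cell embryos than in the donor fibroblasts and 1 was higher, where 78.2% of all features were called (39.7% higher and 38.5% lower). ACADL (-3.40, adjusted p = 8.4e-06), ETFDH (-2.84, 0.00014), HADHA (-2.06, 5.6e-05) and ACADS (-1.81, 0.0019) were lower, and ETFA was higher (1.43, 0.0011). HADHB was higher without overlap, as 84.5% of all features were without overlap, but under the 2-fold limit (0.67, 0.0118). The scaling matters here. The median of all features was 0.07 with the deposited values and 0.92 with the same total in each library, 0.96 with edgeR and 1.01 with DESeq2, and under these HADHB was called at 1.29, 1.45 and 1.49, where 77.3%, 76.7% and 78.1% of all features were called. ACADS was -0.97 with DESeq2 and -0.78 (adjusted p = 0.0555) with quantile normalization, and was not called.

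The wider pathway was counted in 6 lists of 54 genes, of which 37 passed the filter in the embryo fit. In SCNT4c-KG, 9 rose, 6 fell and 22 were not called, and 2 of the rises, ACSL1 and PPARG, had passed the filter only through SCNT4c-KG. In SCNT4c-TDG 6 rose, 5 fell and 26 were not called. The shares called, 40.5% and 29.7%, were close to the 37.2% and 33.3% of all features. In SCNT8c against SCNT4c these numbers were 5, 4 and 28, in SCNT4c-TDG against SCNT4c-KG 3, 3 and 31, and in SCNT4c-TDG against SCNT8c 4, 8 and 25. The shares called were 24.3%, 16.2% and 32.4%, beside 5.79%, 16.2% and 24.7% of all features. Of the 8 falls in SCNT4c-TDG against SCNT8c, 1 (MGLL) had passed the filter only through SCNT8c. In SCNT4c against PFF 3 rose, 28 fell and 11 were not called (73.8%, beside 78.2% of all features, of which 39.7% were higher and 38.5% lower). Of these 11 of the falls and 1 of the rises had passed the filter only through the higher group. The lists had no common direction in the treated groups.

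Among genes that activate fatty acids, 2 of 6 rose and 1 fell in SCNT4c-KG, where 17.6% of all features were called higher and 19.6% lower (median log2 fold change 1.18, beside -0.30 over all features). With so few genes a list, no count is read as particular to it. ACSL3, an acyl-CoA synthetase, was 18849, 16850 and 18329 in SCNT4c against 4314, 3826 and 5677 in SCNT4c-KG (-1.99, adjusted p = 0.00014). In SCNT4c-TDG it was 12379, 15824 and 20968, and differed from SCNT4c-KG (1.82, adjusted p = 0.00098). ACSL1 and ACSL4, also called higher, had means under 100 in both groups and are named because the count is small. ACSL1 passed the filter only through SCNT4c-KG, where it overlapped SCNT4c, and its call was lost without any library of the 2 groups other than SCNT4c library a (4.65 without that library, 3.32 with all). Its fold change was lowest without SCNT4c library c. The call of ACSL4 was lost without SCNT4c library a or c or SCNT4c-KG replicate 2 or 3. In the carnitine shuttle 1 of 4 rose. SLC25A20, the carrier that exchanges acylcarnitine for carnitine across the inner membrane, was 7.89, 21.0 and 29.9 in SCNT4c against 65.3, 105 and 191 in SCNT4c-KG (2.60, adjusted p = 0.0471), a call that was lost when any of these 6 libraries was left out. It was 5.02, 0 and 5.36 in SCNT4c-TDG, below SCNT4c-KG (-5.04, adjusted p = 0.0029). Leaving out SCNT4c-TDG replicate 2, the library at 0, gave -4.16.

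The other enzymes of the mitochondrial spiral split, with 2 of 11 higher and 3 lower in SCNT4c-KG, near the 17.6% and 19.6% of all features (median -1.07, beside -0.30). ECHS1, the short-chain enoyl-CoA hydratase, was 161, 67.3 and 36.5 in SCNT4c against 1073, 834 and 244 in SCNT4c-KG (3.02, adjusted p = 0.0027, and 3.67 without SCNT4c-KG replicate 3). ACAA2, a mitochondrial thiolase, had means of 290 (SCNT4c) and 1345 (SCNT4c-KG) (2.39, adjusted p = 0.0016, and 2.98 without SCNT4c library c). Both also rose in SCNT4c-TDG (2.62 and 2.46, and 3.05 for ACAA2 without SCNT4c library c) and in SCNT8c (2.74 and 2.03). The calls in SCNT8c held without SCNT8c replicate 3 (3.33 and 2.34), for ECHS1 also without SCNT4c library a and for ACAA2 without SCNT4c library c (2.62), and were lost without any other library of these groups. HADH, the dehydrogenase for shorter 3-hydroxyacyl-CoA, was 5315, 6098 and 6112 in SCNT4c, 840, 937 and 865 in SCNT4c-KG and 626, 555 and 417 in SCNT4c-TDG (-2.73, adjusted p = 7.8e-05, and -3.47, adjusted p = 1.0e-05). DECR1, a reductase for unsaturated chains, had means of 2003, 212 and 298 (-3.26, adjusted p = 0.0057, and -2.95, adjusted p = 0.0115), and its call in SCNT4c-TDG was lost when replicate 2 of that group was left out (adjusted p = 0.0625). ACAD11, also lower in SCNT4c-KG, had a mean of 94.2 there and 471 in SCNT4c.

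Peroxisomal genes had 0 of 5 higher and 2 lower in SCNT4c-KG, beside 17.6% and 19.6% of all features (medians -1.10 and -0.30). ABCD3, a transporter of the peroxisomal membrane, fell (log2 fold change -2.05, adjusted p = 0.00019), as did EHHADH, a bifunctional enzyme (-2.01, adjusted p = 0.0016). In SCNT4c-TDG 2 of 5 fell (EHHADH and ACAA1), beside 17.6% of all features, and the call of EHHADH was lost without SCNT4c-TDG replicate 1 or 2 (adjusted p = 0.057 and 0.0531). Of the regulators 2 of 6 rose in SCNT4c-KG, beside 17.6% of all features, and 0 of 6 were called in SCNT4c-TDG, beside 33.3%. SIRT3, a mitochondrial deacetylase, was 158 in SCNT4c-KG and 58.0 in SCNT4c (1.46, adjusted p = 0.0306), and PPARG, a nuclear receptor of lipid storage, had a mean of 53.4 and 6.83. PPARG passed the filter only through SCNT4c-KG, and its call was lost without SCNT4c library a or SCNT4c-KG replicate 2. That of SIRT3 held without SCNT4c library c and was lost without any other library of the 2 groups.

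Of the genes of lipid droplets and lipolysis, 2 of 5 rose in each treated group and 0 fell, where 17.6% of all features were called higher in SCNT4c-KG and 15.7% in SCNT4c-TDG (medians 1.35 and 1.47, beside -0.30 and -0.26). PLIN2, which coats lipid droplets, was 1513, 3401 and 4076 in SCNT4c, 8988, 11740 and 10113 in SCNT4c-KG and 7928, 7564 and 4572 in SCNT4c-TDG (1.89, adjusted p = 0.0022, and 1.24, adjusted p = 0.0287). ABHD5, the co-activator of the lipase PNPLA2, was 739, 821 and 1087 in SCNT4c, 2986, 3355 and 3205 in SCNT4c-KG and 3434, 4106 and 3739 in SCNT4c-TDG (1.87, adjusted p = 0.00041, and 2.11, adjusted p = 0.00017). Both treated groups lay above every SCNT4c library for both genes. The call of PLIN2 in SCNT4c-TDG was lost without SCNT4c library a or SCNT4c-TDG replicate 1 or 2 (adjusted p 0.1 to 0.142). ABHD5 was also higher in SCNT8c (1.72, adjusted p = 0.0189), a call that held without SCNT8c replicate 3 or SCNT4c library c and was lost without any other library of these groups.

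**Figure D5:**
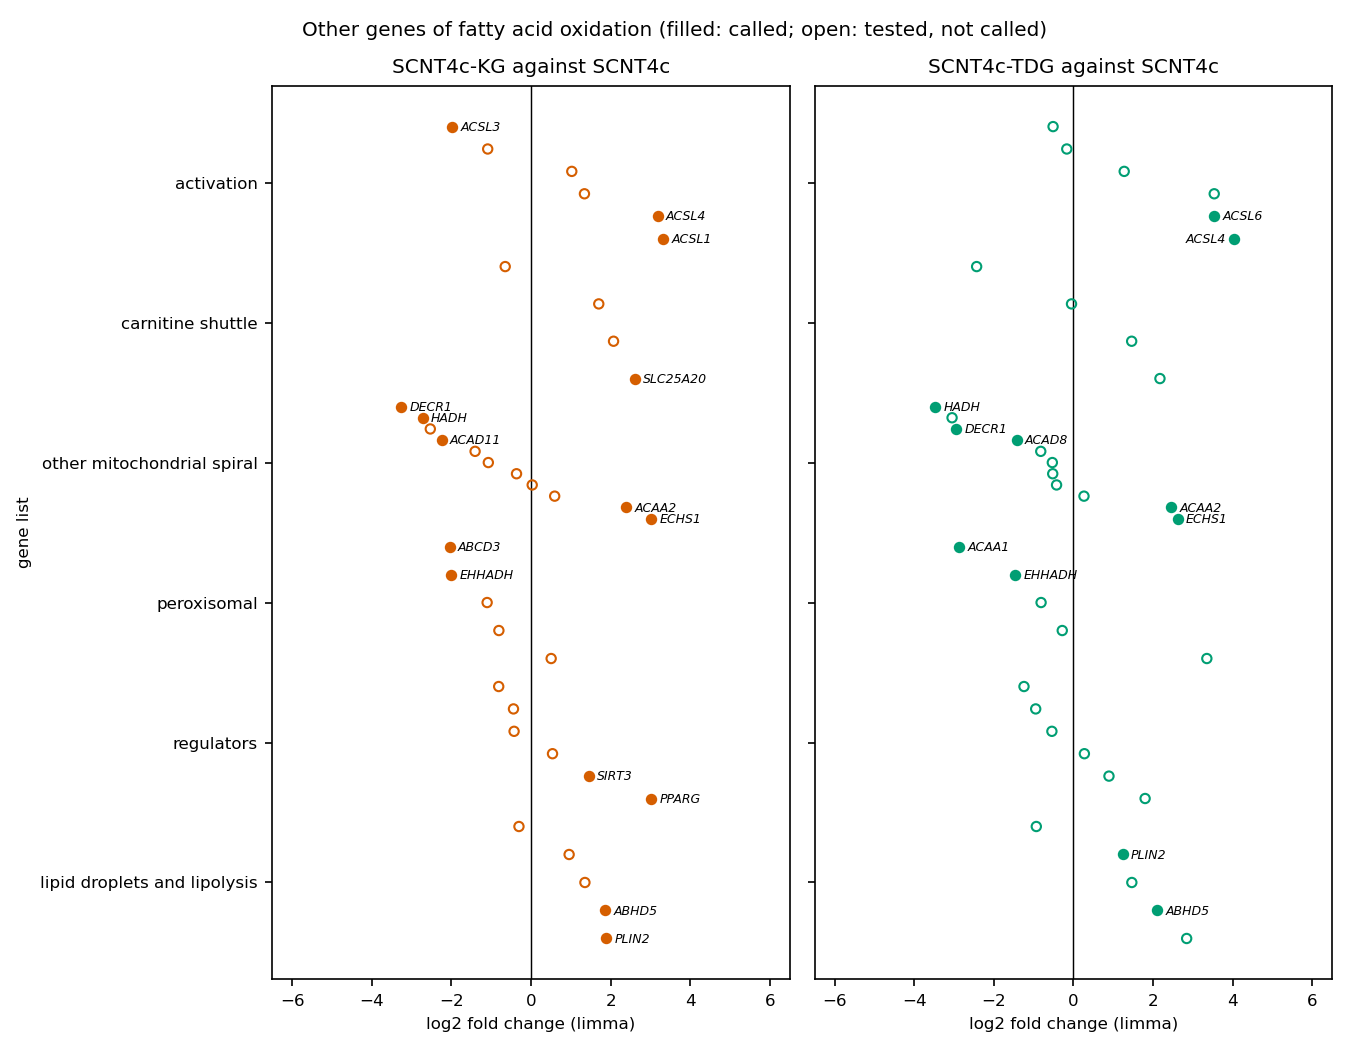
Log2 fold change against SCNT4c from limma for each gene of the 6 lists that passed the filter, by list, in SCNT4c-KG (left) and SCNT4c-TDG (right). Filled points were called and carry their symbol, open points were not. HADH and DECR1 lie left of 0 in both panels, and ECHS1 and ACAA2 right of it.

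Over the 15 libraries, the named genes whose log2 signal was most like that of ACADM, of 10853 genes with a mean of at least 10, were LENG1 (Pearson r = 0.985), NDUFB2, a subunit of complex I (0.977), USMG5, a small protein of the ATP synthase (0.975), ERH (0.972) and SRP19, a part of the signal recognition particle (0.972). NDUFB2 had means of 240 in SCNT4c, 18714 in SCNT4c-KG, 5185 in SCNT4c-TDG, 605 in SCNT8c and 648 in PFF. These genes were picked by their likeness to ACADM in the same libraries, so a like order of groups follows from the choice. Among the other members r was 0.254 for ACADL, -0.192 for HADHA, -0.35 for ETFDH, -0.369 for ETFA, -0.738 for ACADS and -0.923 for HADHB. The libraries form 5 groups of 3, and these values describe mostly the group means.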

How the data were processed

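The deposited table gave a normalized signal for each feature, which the authors made by trimming reads (Trimmomatic 0.39), aligning them to Sscrofa11.1 (STAR 2.5.3a), assembling transcripts (StringTie 2.1.2), counting uniquely mapped reads with HTSeq 0.9.1 and dividing by a factor for each library. The tools are named in the submitters' processing notes and the methods. The source of the factor and the strand setting of the counting are not given in the sources used here. Divided by the value of 1 read, 100% of the entries came out whole (tolerance 0.01), which gave back the reads. Repeated entries (241 of 43535) were removed.

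Tests used limma 3.58.1 (R 4.3.3, trend) on log2(value + 1) of features averaging 10 or more, with the 12 embryo libraries in 1 fit and SCNT4c and PFF in a fit of 6, and Benjamini-Hochberg adjustment over all features tested. Fold changes on this scale understate those of low features. The study's test, DESeq2 (1.42.0 here), and edgeR 4.0.16 were run on recovered reads as alternatives, beside other pseudocounts (0.1 and 10), filters (above 0, and a mean of 50) and scalings, fits of 2 groups, no fold limit, sums over a locus and each library left out. Leaving out libraries from the locus sums and the subunit ratios was added after the data had been seen.

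The members and lists were chosen with earlier results of these data known. Genes of the lists are named if among the 2 largest rises or falls of their list called in SCNT4c-KG against SCNT4c, and averaging 100 or more in the higher of both groups. The other genes named from the lists were chosen after their values were seen, and the rest were only counted. A single gene was left out of the lists and their counts and is not reported here. Promoters and exon lengths were read from the RefSeq annotation of Sscrofa11.1 with pysam 0.24.0. Figures used Python 3.11.15, pandas 2.3.3 and matplotlib 3.10.9.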

Additional observations from a re-analysis of the deposited data

How the results depend on the processing

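Of the members' log2 fold changes under the alternatives, 609 kept their side of the threshold, 13 lost a call, 14 gained one and 0 called values changed sign. For the number of members called, SCNT4c-KG and SCNT4c-TDG against SCNT4c, SCNT4c-TDG against SCNT8c and SCNT4c against PFF stayed within 1.5 times under the settings run. For SCNT8c against SCNT4c, the count of 0 became 1 with DESeq2, and leaving out 1 library each gave 0 to 2, with 2 (ACADL higher and ETFA lower) without SCNT8c replicate 3, where 32.3% of all features were called. For SCNT4c-TDG against SCNT4c-KG, the count of 1 became 0 with all features above 0, 2 in a fit of the 2 groups alone, and 0 to 0 when each of the 6 libraries was left out. The cause was not tested. A fit with the replicate number as a block (replicate block) gave 2 for this comparison, the same number as the fit of 2 groups without it, and 3 for SCNT4c-TDG against SCNT8c, as without the block, where 22.2% of all features were called. Libraries with the same number correlated in their deviations from the group means by -0.002 to 0.195, and were not taken as pairs. No block was fitted for comparisons with SCNT4c, whose numbers conflict. Between SCNT4c-KG and SCNT4c, the median of all features was -0.30 with the deposited values and -0.39 to -0.09 with the other scalings. The 7 reads behind ACADM in SCNT4c limit how closely its fold change is known.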
